A study of Mus musculus with 3 samples.

Results

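Amn, Cubn, Lrp2 and Dab2 encode the receptor machinery with which visceral endoderm, the outer layer of the early mouse embryo, takes up nutrients and carrier proteins. They were followed here by every probe of the deposited signal table that carries 1 of the 4 symbols. This gave 5 probes of 25697, of which 1 carried Amn, 3 carried Dab2 and 1 carried Lrp2. Of these 5 probes, 3 were detected on enough arrays to be tested. No probe of the table used here carried the symbol Cubn, so 3 of the 4 genes could be read and cubilin itself was not analysed here.

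Cubilin, the product of Cubn, is a large receptor that lies on the outside of the cell and has no membrane-spanning part of its own. Amnionless, the product of Amn, is a membrane protein that carries cubilin to the surface and anchors it there, and mouse embryos without it fail to form a normal primitive streak. Megalin, the product of Lrp2, is a giant receptor of the LDL receptor family that binds carrier proteins and works beside cubilin. Dab2 is the cytoplasmic adaptor that links the tails of these receptors to clathrin coats.

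The cells were mouse embryonic stem (ES) cells of 129 strain background carrying a Sox17-GFP reporter, and all 3 groups came from this line. The first treated group was Sox17-GFP(+) cells after recombinant human Activin A at 50 ng/ml, and the second was Sox17-GFP(+) cells after recombinant mouse Nodal at 1000 ng/ml. Both were labelled day 7 within a protocol of 6 to 8 days in medium with serum. The third group was undifferentiated cells, grown in LIF on gelatin-coated plates that also held feeder fibroblasts from mouse embryos. Dose, protein and species of origin of the protein differ together between the treated groups, and the data hold no untreated cells of day 7. The series design text calls the untreated ES cells Sox17-GFP positive, whereas their title, followed here, calls them undifferentiated. Each group had 2 arrays in the signal table, although the sample descriptions name 2, 3 and 4 replicates, and the labels do not say whether these came from separate cultures, so p-values measure a spread that may be technical.

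Total RNA had been measured on 1-colour Illumina bead arrays. Between 49.34% and 50.56% of the probes were detected per array, with median signals of 55.16 to 60.85 over a background of 39.12 to 40.96. Here a probe counts as detected where its deposited detection p-value is under 0.05, and background is the signal of probes with a detection p-value near 0.5. The normalized log2 level of Sox17 ranged from 11.786 to 11.902 over the treated arrays and was 6.567 and 6.445 in undifferentiated cells. Treated cells were taken by their Sox17 reporter, so this height checks the labels and is no finding.

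The start regions of Amn and Dab2 are shown because these were the genes with detected probes and both were higher after Nodal than after Activin. Each run below is the RefSeq sequence of GRCm38.p6 from 250 bases before to 50 bases after an annotated start, written 5′ to 3′, with matches to the GATA factor core motif GATAA, on either strand, in capitals. All 4 member genes were matched in the promoter table by symbol.
Amn, chr12:111270846-111271145, plus strand: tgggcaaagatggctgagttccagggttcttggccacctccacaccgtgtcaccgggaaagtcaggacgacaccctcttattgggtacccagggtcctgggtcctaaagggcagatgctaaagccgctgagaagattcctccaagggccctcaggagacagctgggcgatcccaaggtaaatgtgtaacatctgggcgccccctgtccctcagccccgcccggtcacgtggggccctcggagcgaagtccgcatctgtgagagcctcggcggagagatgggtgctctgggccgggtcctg
Dab2 upstream start, chr15:6299539-6299838, plus strand: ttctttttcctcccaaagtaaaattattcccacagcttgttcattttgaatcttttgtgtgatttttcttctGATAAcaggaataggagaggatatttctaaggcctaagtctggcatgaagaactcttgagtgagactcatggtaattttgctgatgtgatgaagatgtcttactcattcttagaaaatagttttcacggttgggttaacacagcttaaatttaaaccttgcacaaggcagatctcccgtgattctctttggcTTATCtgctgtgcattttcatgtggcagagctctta
Dab2 downstream start, chr15:6386498-6386797, plus strand: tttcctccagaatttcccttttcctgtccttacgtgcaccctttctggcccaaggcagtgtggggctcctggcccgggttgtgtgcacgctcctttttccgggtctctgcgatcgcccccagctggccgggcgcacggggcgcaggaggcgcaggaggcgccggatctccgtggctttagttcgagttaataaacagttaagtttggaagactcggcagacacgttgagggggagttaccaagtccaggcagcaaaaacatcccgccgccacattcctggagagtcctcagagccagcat

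GATAA matched 2 times at the upstream Dab2 start, and 0 times at its downstream start and at the Amn start. Counted from the annotated start, 1 match began at position -178 on the plus strand and the other lay at position 15 on the minus strand. The motif was present in 25.4% of 32851 annotated start regions of this length, so a match is common. The forkhead motif TGTTTAC (3.65% of start regions), the FoxH1 motif TGTGGATT (0.855%) and the Sox motif ACAATG (12.6%) matched none of the 3 windows, nor those of Cubn and Lrp2. These letters describe the windows only. Which transcript each probe matches was not analysed here, so the values are not assigned to either Dab2 start.

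Amn and Dab2 were both higher in Nodal-derived than in Activin-derived Sox17-GFP(+) cells, by 2.5-fold for Amn and by 2.73-fold and 2.91-fold for the 2 detected Dab2 probes. In undifferentiated cells, Amn was higher than in either treated group, whereas Dab2 lay between the treated groups. Lrp2 was not detected on any array.

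Amn probe ILMN_2675289 was detected on 6 of 6 arrays, with raw signals of 106.3 and 101.4 for Activin, 229 and 220.7 for Nodal, and 772.8 and 708.5 for undifferentiated cells. After background correction and quantile normalization the Amn level on the log2 scale was 6.171 and 6.187 for Activin, 7.473 and 7.531 for Nodal, and 9.626 and 9.661 for undifferentiated cells. No groups overlapped, and Amn stood in the order undifferentiated, Nodal, Activin. Groups without overlap were common over all tested probes, at 44.6% between Nodal and Activin, 85% between Activin and undifferentiated cells and 86.2% between Nodal and undifferentiated cells. Between Nodal and Activin the Amn level differed by 1.32 on the log2 scale (SE 0.0856, 95% interval 1.13 to 1.52, limma, adjusted p = 0.000247, n = 2 arrays per group), where 2.06% of 14050 tested probes passed. The 4 differences between a Nodal and an Activin array ranged from 1.286 to 1.36. The Activin arrays were the dimmest for Amn, at 66.2 and 60.5 signal units over background, and without background correction the Amn change was 0.962 on the log2 scale.

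Dab2 probe ILMN_1243329, the brighter of its detected probes, had raw signals of 711.3 and 654.4 for Activin, 2020 and 1596 for Nodal, and 1346 and 1200 for undifferentiated cells. On the log2 scale this Dab2 level was 9.25 and 9.306 for Activin, 10.856 and 10.603 for Nodal, and 10.397 and 10.389 for undifferentiated cells. The Nodal arrays were the highest, the Activin arrays the lowest, and no groups overlapped. The Nodal level was 1.45 higher than the Activin level on the log2 scale (SE 0.104, 95% interval 1.22 to 1.69, limma, adjusted p = 0.000338). Between a Nodal and an Activin array the difference ranged from 1.297 to 1.606.

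The other detected Dab2 probe, ILMN_3091641, gave raw signals of 384 and 372.1 for Activin, 1196 and 900.5 for Nodal, and 642.2 and 495.4 for undifferentiated cells. The log2 levels were 8.292 and 8.418 for Activin, 10.056 and 9.74 for Nodal, and 9.359 and 9.121 for undifferentiated cells. It gave the same order of groups as the brighter probe, again without overlap. The Nodal level exceeded the Activin level by 1.54 on the log2 scale (SE 0.128, 95% interval 1.25 to 1.83, limma, adjusted p = 0.000987). On both probes Nodal replicate 1 was above Nodal replicate 2, so the spread of the Nodal group was wider for Dab2 (SD 0.179 and 0.223) than for Amn (SD 0.0407).

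The third Dab2 probe, ILMN_3019670, was detected on 0 of 6 arrays. It read 38.64 and 41.3 for Activin, 42.58 and 33.72 for Nodal, and 37.81 and 42.7 for undifferentiated cells in raw signal, all near the background of each array. This probe gave no measurable level in any group while the others of the same gene were bright, and which stretch of the transcript each probe binds was not analysed here.

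Lrp2 was measured by probe ILMN_3117209 only, which was also detected on 0 of 6 arrays. Its raw signals were 41.96 and 41.72 for Activin, 46.34 and 45.22 for Nodal, and 44.42 and 46.02 for undifferentiated cells, with deposited detection p-values of 0.204 to 0.457. These values lay 0.761 to 6.9 units above background. Both Activin values were below the 4 others, and the Nodal and undifferentiated values overlapped, but with no array detected these differences are not read as levels. Megalin RNA was thus not measurable over the background of this probe, which does not show that it was absent.

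**Figure D1:**
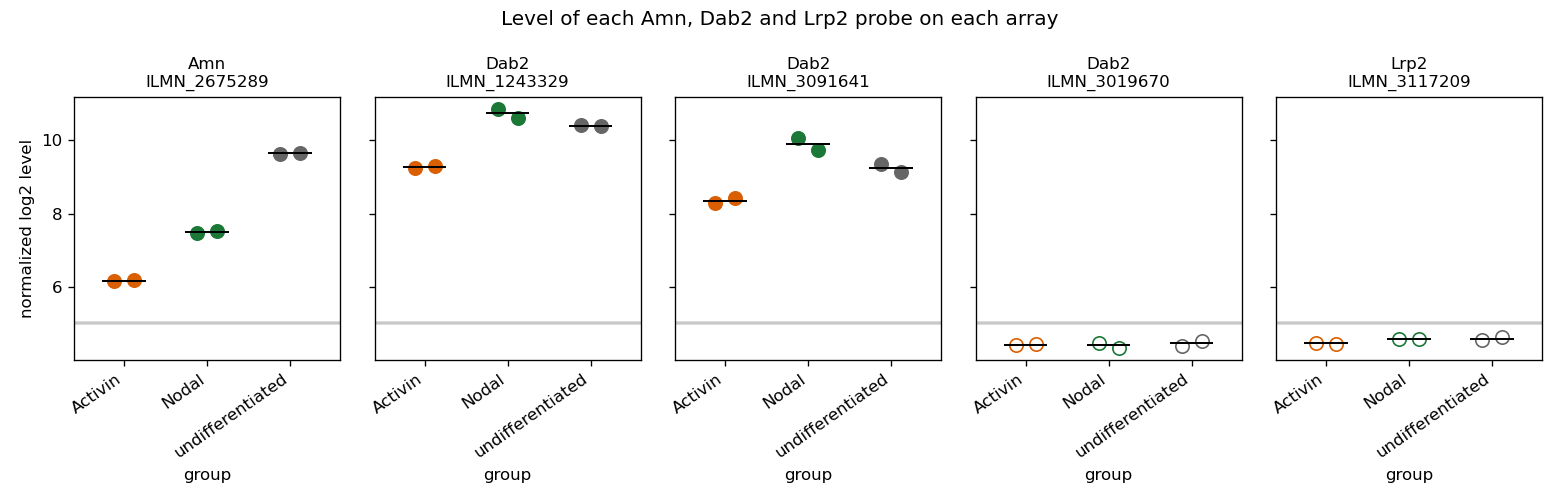
Normalized log2 level (y axis) of the 5 probes of Amn, Dab2 and Lrp2, 1 panel per probe, in the 3 groups (x axis). Each point is 1 array (filled where detected, open where not), the black line is the mean of 2 arrays, and the grey band spans the lowest detected level of the 6 arrays. Amn and the bright Dab2 probes separate all 3 groups, while the third Dab2 probe and Lrp2 lie under the band.

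All 3 detected probes passed between Nodal and Activin, and all 3 were higher after Nodal. Over the whole table, 290 of 14050 tested probes passed in this comparison (2.06%), 152 of them higher after Nodal (1.08%). Ranked by log2 change, the Dab2 probes were the 7th and 8th and the Amn probe the 10th of 14050 tested probes towards Nodal. The member genes were chosen with earlier results of these data known, so these ranks are no separate evidence. The median change over all tested probes was -0.003 on the log2 scale. In these bulk samples, fewer cells of a type and less RNA per cell cannot be told apart.

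The authors' deposited table of normalized averages, which gives 1 value per group and no spread, placed the groups in the same order. In that table Amn averaged 66.39 after Activin, 188.6 after Nodal and 850.3 in undifferentiated cells, a Nodal to Activin ratio of 2.84. The authors' deposited table gave ratios of 2.72 for Dab2 probe ILMN_1243329 and 2.93 for ILMN_3091641. These values are linear and background-subtracted, with group medians of 19.11 to 19.3, and how the authors normalized them is not stated.

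Each treated group was also compared with undifferentiated cells. Both comparisons use the same 2 undifferentiated arrays. They set cells after days of differentiation and reporter selection against cells kept with LIF and feeders, which cannot be told apart from the treatment. All 3 detected member probes passed in each comparison, where 72.5% of tested probes passed for Activin (37.3% lower) and 73.3% for Nodal (35.3% higher, 37.9% lower). The share is so high that the count itself is not a result about these genes, and the sizes and directions are given instead.

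Amn was lower than in undifferentiated cells after Activin by 11-fold (log2 change -3.46, SE 0.0856, adjusted p = 9.79e-10) and after Nodal by 4.41-fold (log2 change -2.14, SE 0.0856, adjusted p = 2.04e-08; limma). Amn RNA was thus lower in both kinds of Sox17-GFP(+) cells than in undifferentiated cultures, and the difference was smaller after Nodal, by the test of Nodal against Activin above.

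Dab2 moved in opposite directions in the treated groups. After Activin it fell by 1.11 on the log2 scale by probe ILMN_1243329 (SE 0.104, 2.17-fold lower, adjusted p = 7.45e-06) and by 0.885 by ILMN_3091641 (SE 0.128, 1.85-fold lower, adjusted p = 0.000163; limma). After Nodal it rose by 0.337 (SE 0.104, 1.26-fold, adjusted p = 0.0148) and by 0.659 (SE 0.128, 1.58-fold, adjusted p = 0.00114) by the same probes. The rise by ILMN_1243329 was smaller without Nodal replicate 1, at 0.21. It kept its size without undifferentiated replicate 1 (0.34) and without undifferentiated replicate 2 (0.331). In these fits, which leave 1 array in a group, the rise by ILMN_1243329 did not pass. By ILMN_3091641 the rise passed without any 1 array. By neither probe did the rise pass a test against a minimum change of 1.5-fold (adjusted p = 1 and 0.653).

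**Figure D2:**
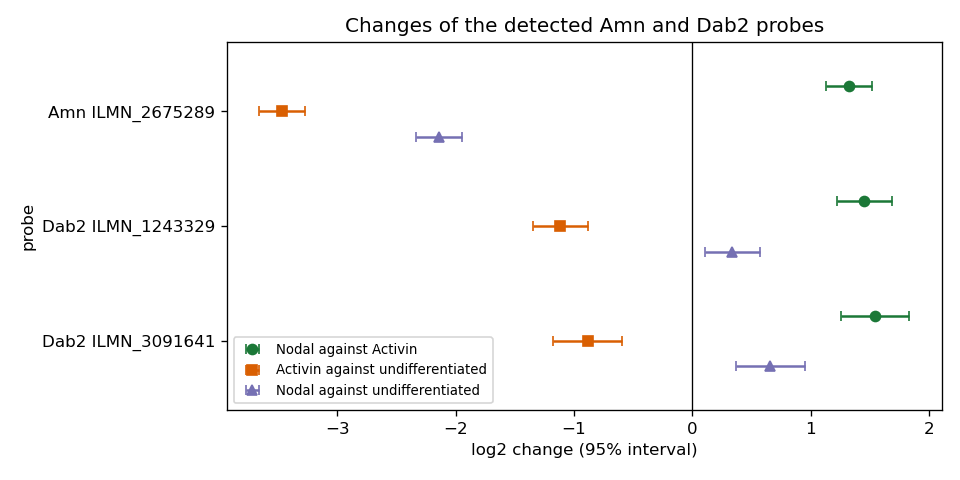
Log2 change (x axis) of the detected Amn and Dab2 probes (y axis) in the 3 comparisons, with 95% intervals from the limma fit over 6 arrays. Nodal against Activin lies at 1.32 to 1.54 for all 3 probes, Amn lies left of 0 against undifferentiated cells in both treated groups, and Dab2 lies left of 0 after Activin and right of 0 after Nodal.

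Dab2 RNA also occurs in fibroblasts and macrophages, so marker lists of the cells that the cultures could hold were read beside it. Feeder fibroblast markers had a summed normalized signal of 7272 to 7656 on the undifferentiated arrays, 4647 to 5018 on the Activin arrays and 3426 to 3576 on the Nodal arrays, over 13 tested genes of 16. Of these 13, 10 were lower and 2 higher than in undifferentiated cells after Activin, against 36.8% and 36.3% of all genes. After Nodal 11 were lower and 2 higher, against 37% and 36.5%. The higher genes were Twist1, a mesenchymal transcription factor (1.319 after Activin and 1.2 after Nodal on the log2 scale), Acta2 after Activin (0.282) and Pdgfrb, a growth factor receptor, after Nodal (0.352). Acta2 has 4 tested probes, and 0 of the others were called higher after Activin. Acta2, the brightest of the list, had log2 levels of 12.025 for Activin, 11.477 for Nodal and 11.743 for undifferentiated cells. It made up the largest part of each sum, so the sums say little about the other genes. The mean log2 level over the 13 genes was 7.43 to 7.472 on the undifferentiated arrays. It was 6.023 to 6.029 on the Activin arrays and 5.929 to 5.939 on the Nodal arrays. On each undifferentiated array 12 of the 13 were detected, and on each treated array 7, while Col1a1, Col3a1, Mgp, S100a4 and Prrx1 were detected on 0 of the 4 treated arrays. Macrophage markers had a summed signal of 11920 to 13070 in undifferentiated cells, 291 to 304.2 after Activin and 288.8 to 294.7 after Nodal, over 7 tested genes of 12. Of these markers of macrophages, Lyz1, Lyz2, Adgre1, Tyrobp and Cd14 were detected on both undifferentiated arrays and on 0 treated arrays. Cd68 and Laptm5 were detected on every array. The listed macrophage genes Csf1r, Ptprc, Aif1, Itgam and Fcer1g, and the feeder genes Col1a2, Postn and Lum, were detected on 0 arrays. All 7 tested macrophage genes and most tested feeder genes were thus higher in the undifferentiated group. Genes detected only in that group were tested because they were high there, so these counts are no separate evidence. The part of feeder and macrophage RNA in the undifferentiated level of Dab2 and Amn was not tested. Between Nodal and Activin, 1.25% of all genes were higher and 1.04% lower by limma. Of the feeder and macrophage markers 0 were higher, at an unadjusted p under 0.05 too. In each list 1 was lower: Acta2, a smooth muscle actin (log2 change -0.548), and Cd68, a lysosomal membrane protein (log2 change -0.683). With every probe tested, neither was called. Markers detected on 0 treated arrays were compared at background level here. Their missing calls do not show that feeder or macrophage RNA was equal after Nodal and Activin.

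The remaining genes of the uptake route were read by lists of adaptors and chaperones, the clathrin coat and endosomes, other receptors, and ligands. Each gene is given by its brightest tested probe, and over all 10234 genes 2.29% passed between Nodal and Activin (1.25% higher, 1.04% lower). These lists were chosen with earlier results of these data known.

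Of 9 tested adaptors, chaperones and regulators of 12 listed, 2 were higher after Nodal and 0 lower (3 and 0 at an unadjusted p under 0.05, limma), with a median log2 change of 0.146, and 1 was higher with every probe tested. Myo6, the myosin motor that binds Dab2 and moves endocytic vesicles inward, had a mean log2 level of 8.781 ± 0.13 after Activin and 9.671 ± 0.0634 after Nodal (SD, n = 2). Its change was 0.89 on the log2 scale (SE 0.11, 1.85-fold, limma, adjusted p = 0.0057). Lrpap1, the chaperone that keeps LDL receptor family proteins free of ligand on their way to the surface, rose from 11.783 ± 0.0208 to 12.27 ± 0.00443 (log2 change 0.487, SE 0.0851, 1.4-fold, limma, adjusted p = 0.0235). Against undifferentiated cells both Myo6 and Lrpap1 were higher in either treated group, Myo6 by 0.852 after Activin and 1.742 after Nodal and Lrpap1 by 1.09 and 1.577. Dab1, the neural relative of Dab2, had a log2 change of -0.193 between Nodal and Activin (adjusted p = 0.409).

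The clathrin coat and endosome list had 22 tested genes of 25, and 0 passed in either direction between Nodal and Activin by limma (2 higher and 0 lower at an unadjusted p under 0.05), and 1 was higher without background correction or with an offset of 50. Their log2 changes ranged from -0.176 for Hip1r to 0.35 for Rab4a, with a median of 0.034. The µ subunit of the clathrin adaptor AP-2, Ap2m1, had log2 levels of 9.757 after Activin and 9.961 after Nodal. The small GTPase Rab11a, which works in recycling endosomes, had levels of 7.92 and 8.144. The changes of all 22 were smaller than those of Amn and Dab2, and missing the threshold does not show that levels were equal. Against undifferentiated cells 11 of these genes were higher and 3 lower in each treated group, where 36.3% of all genes were higher and 36.8% lower after Activin, and 36.5% and 37% after Nodal.

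Of the other receptors of the LDL receptor family and related sorting receptors, 12 of 16 were tested and 0 passed between Nodal and Activin by limma (2 higher and 2 lower at an unadjusted p under 0.05). The log2 changes ran from -0.483 for Vldlr, the VLDL receptor (SE 0.119, adjusted p = 0.0842), to 0.279 for Lrp5, a Wnt coreceptor (SE 0.0902, adjusted p = 0.187). Vldlr has 3 tested probes, and those other than its brightest did pass, so its missing call holds for the brightest probe only. Lrp1, a broadly acting scavenger receptor, changed by 0.057 (adjusted p = 0.907). Without background correction, and with an offset of 50, 2 receptors of this list passed as lower after Nodal.

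Ligands of cubilin or megalin were tested for 11 of 17 genes, of which 4 were higher after Nodal and 0 lower by limma (5 and 3 at an unadjusted p under 0.05). The count of lower ligands was 2 without background correction and with an offset of 50, and 1 with median scaling or a detection p-value under 0.01. Ttr, a carrier of thyroid hormone and of the retinol-binding protein, had a mean log2 level of 8.042 ± 0.563 after Activin and 11.125 ± 0.069 after Nodal. Apoa1, the main protein of high-density lipoprotein and a cubilin ligand, had levels of 5.86 ± 0.17 and 8.102 ± 0.0647. These were differences of 3.084 (SE 0.218, adjusted p = 0.000338) and 2.242 (SE 0.109, adjusted p = 7.52e-05; limma). Apoe and the metallothionein gene Mt1 rose by less, 0.439 and 0.55 on the log2 scale. Rbp4, the retinol carrier, had a change of 0.937 that did not pass (adjusted p = 0.0632), and Fgf8 and Shh, secreted signals that bind these receptors, had changes of -0.41 and -0.535 that did not pass either (adjusted p = 0.123 and 0.0683). The blood carriers Alb and Gc and the intrinsic factor gene Cblif were detected on 0 arrays.

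The label of visceral endoderm was read against its markers. Of 20 tested visceral endoderm genes of 24 listed, 9 were higher after Nodal than after Activin and 0 were lower by limma (15 and 0 at an unadjusted p under 0.05), against 1.25% higher over all genes, and the median log2 change was 0.508 against 0.0021 over all genes. Besides Ttr, Apoa1 and Apoe, which the ligand list also holds, they were Soat2, an enzyme that esterifies cholesterol (log2 change 1.814), Hnf4a, a nuclear receptor of endoderm and liver (1.157), Vil1, the microvillus protein villin (1.154), Sox7 (1.008), Ctsh, a lysosomal protease (0.708), and Apom. Sox7 has 2 tested probes, and the other did not pass. Apom was detected on 0 Activin arrays and was at least 1.47-fold higher after Nodal. The count of 9 fell to 5 when every probe of the table was tested. This list too was chosen with earlier results of these data known, so its counts are no separate evidence. Against undifferentiated cells, 16 of the 20 were higher and 2 lower after Nodal, where 36.5% of all genes were higher and 37% lower. After Activin 15 were higher and 3 lower, against 36.3% and 36.8%. Only 12 and 10 of the 20 were detected on the undifferentiated arrays. Those detected only on treated arrays were tested because they were high there. The 2 lower after Nodal were Soat2 and Sox7, with log2 levels of 7.98 and 7.992 in undifferentiated cells. Apom had levels of 5.588 after Nodal and 5.587 in undifferentiated cells. Afp, a defining product of visceral endoderm, was detected on 0 of 6 arrays, as were Apoa4 and Slc2a2.

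All 11 tested definitive endoderm markers were higher than in undifferentiated cells in both treated groups, where 36.3% of all genes were higher after Activin and 36.5% after Nodal. Of the 11, Sox17 was the gene of the reporter by which the treated cells were taken, and Foxa1, Foxa2, Cer1 and Hhex are also in the visceral endoderm list. The other 6 were Cxcr4, Gsc, Lhx1, Eomes, Mixl1 and Otx2. Lhx1, Mixl1, Foxa1 and Foxa2 were detected on 0 undifferentiated arrays. They were tested because they were high in treated cells, so the count of 11 is no separate evidence. Between Nodal and Activin, 1.25% of all genes were higher and 1.04% lower. The homeobox gene Mixl1 was lower after Nodal (log2 change -0.781). By limma 1 of the 11 markers was thus lower and 0 were higher (1 at an unadjusted p under 0.05). Without background correction, and with an offset of 50, these counts were 3 lower and 1 higher. Of 10 tested parietal endoderm markers 3 were higher after Nodal, Lama1 (0.885), Pth1r (0.521) and Lamb1 (0.492), and this count was 0 with every probe tested and 6 without background correction. Pth1r has 3 tested probes, and only 1 of the others shared its call. Of 6 tested trophoblast markers 0 passed in either direction by limma (4 higher and 1 lower at an unadjusted p under 0.05), and 1 or 2 were higher under other background, scaling or detection settings. The lists overlap and Afp was not detected, so the cells are called by their label, Sox17-GFP(+), and are not named visceral endoderm here.

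**Figure D3:**
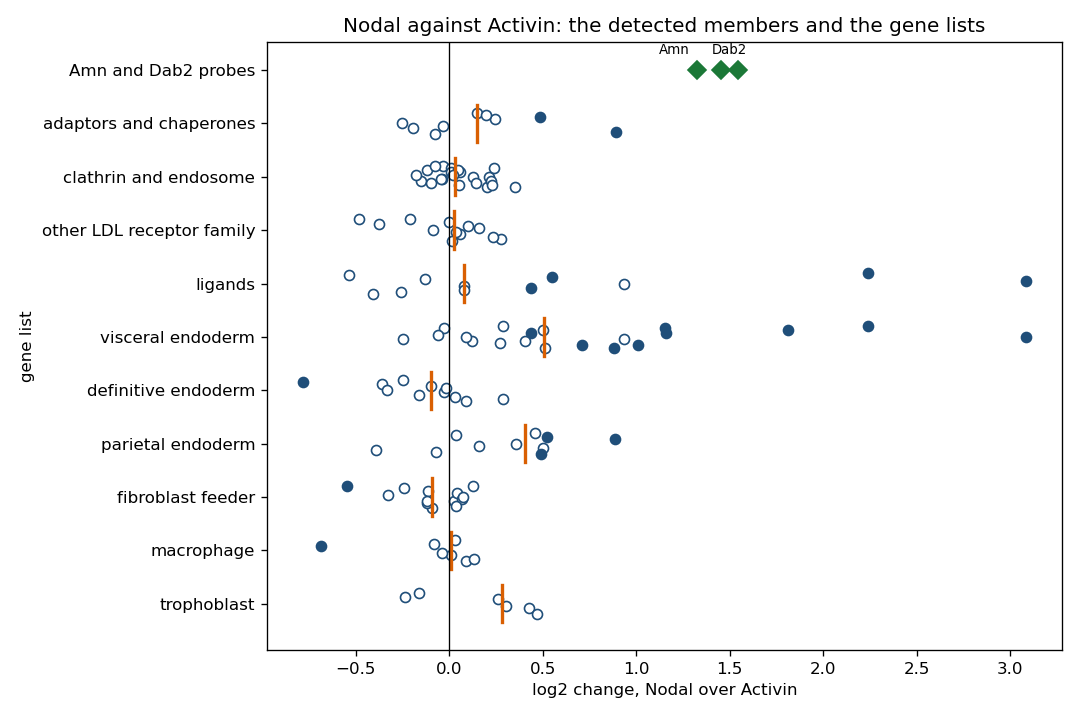
Log2 change of Nodal over Activin (x axis) for the detected Amn and Dab2 probes (diamonds) and for each tested gene of 10 lists (y axis, points). Filled points passed the limma test, open points did not, orange bars are list medians, and vertical offsets within a list only separate points. The Amn and Dab2 probes lie right of every gene of the adaptor, clathrin and receptor lists, and 9 visceral endoderm genes are filled, all to the right of 0.

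GATA factors are known to act in extraembryonic endoderm, and the upstream Dab2 start holds GATAA matches, so their levels are given beside it. Gata6 had log2 levels of 11.911 after Activin, 11.851 after Nodal and 8.8 in undifferentiated cells, and between Nodal and Activin its change was -0.06 (adjusted p = 0.881). Gata4 had levels of 5.714, 5.987 and 5.029, with a change of 0.273 between Nodal and Activin (adjusted p = 0.176), and was not detected on the undifferentiated arrays. Whether either factor bears on the Dab2 level was not tested.

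The genes with the levels most like each member were found by the root mean square difference of mean-centred log2 levels over 6 arrays, among 10234 genes. For Dab2 these were Klb, a coreceptor for endocrine FGFs (difference 0.271), the scaffold protein gene Pdzd3 and the apolipoprotein gene Apom. Klb had levels of 5.147 after Activin, 5.973 after Nodal and 5.957 in undifferentiated cells, whereas Pdzd3 and Apom were detected on 0 Activin arrays, so their likeness rests in part on levels that were not measured and no difference is given for them. For Amn they were the apolipoprotein gene Apoc1 (difference 0.295), the transcription factor gene Rfx2 (0.322) and Folr1, a folate receptor (0.342). Apoc1 had levels of 6.632 after Activin, 7.358 after Nodal and 9.467 in undifferentiated cells, and Folr1 had levels of 5.593, 6.166 and 8.844. The 6 arrays fall into 3 groups, so this likeness is a description over few points.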

How the data were processed

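Gene expression was measured in 3 groups of 2 arrays. Per the file headers, the authors' deposited signal table gives each probe and array a non-normalized intensity and a detection p-value. The authors' deposited averages per group, linear intensity values, were read beside it. The sources used here name neither array model nor scanner software. Signals were corrected with limma 3.58.1 in R 4.3.3 (nec, background from the detection p-values, offset 16), quantile-normalized and log2-transformed.

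Probes with a detection p-value under 0.05 on at least 2 arrays were tested (14050). The 6 arrays were fitted together with 1 term per group (lmFit, eBayes), with two-sided p-values adjusted by Benjamini-Hochberg over all tested probes and a threshold of 0.05. File symbols were updated through RefSeq (GRCm38.p6, names and start regions). Named genes were all member probes, up to 4 passing genes with the largest change per list, and the 3 genes most like each member; other genes were named after their values were seen. Members and lists were chosen with earlier results of these data known. A bound for a gene undetected in 1 group used each array's lowest detected level. The fit was first tested on simulated data. Motifs were searched and figures drawn with Python 3.11.15. Alternatives covered background, offset, scaling, filter, probe choice, minimum fold, groups fitted, replicate block and single arrays left out.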

Additional observations from a re-analysis of the deposited data

Results flagged for a closer look

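The effect against undifferentiated cells differed between Nodal and Activin for all 3 detected probes, by the test of the difference itself. The difference was 1.323 on the log2 scale for Amn, 1.543 for Dab2 probe ILMN_3091641 and 1.451 for Dab2 probe ILMN_1243329, with adjusted p-values of 0.000247, 0.000987 and 0.000338 (limma). For Dab2 the sign against undifferentiated cells also differed, lower after Activin and higher after Nodal. These are the differences between Nodal and Activin given above and no separate evidence.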

How the results depend on the processing

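Over 141 recomputed values of the 3 detected probes, 135 kept their direction and their side of the threshold, and none turned. Between Nodal and Activin all 3 probes passed under every alternative run, with Amn at 0.962 to 1.366, Dab2 probe ILMN_1243329 at 1.331 to 1.582 and ILMN_3091641 at 1.391 to 1.706, and adjusted p-values up to 0.0301. Against a minimum fold of 1.5, probe ILMN_3091641 did not pass after Activin (-0.885, adjusted p = 0.0655), and neither Dab2 probe passed after Nodal (0.659 and 0.337), which left 1 member probe. With single arrays left out, probe ILMN_1243329 ranged from 0.21 to 0.465 after Nodal against undifferentiated cells. The 290 probes passing between Nodal and Activin became 608 without background correction, 519 with an offset of 50, 74 with no filter, 8 with the minimum fold and 57 to 216 with single arrays left out. With the minimum fold, 4545 and 4696 probes passed for Activin and Nodal against undifferentiated cells, against 10187 and 10293. The cause was not tested. Median scaling moved the median change of all probes against undifferentiated cells from -0.0319 to 0.0702 for Activin and from -0.0302 to 0.0718 for Nodal, and no sign of Amn or Dab2 turned. Of 360 recomputed list counts, 36 moved by over 1.5 times. Arrays of the same number did not deviate together (r = 0.09729, 0.001301 and 0.03212), and with the replicate block 299 probes passed between Nodal and Activin, with Dab2 and Amn calls kept. Signals of 60.5 over background for Amn and under 7 for Lrp2 limit both.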
